A study of Mus musculus with 8 samples.

Results

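The 10 genes Alb, Ttr, Ahsg, Fga, Fgb, Fgg, Apob, Fn1, Cp and C3, which encode abundant proteins that hepatocytes secrete into blood plasma, were examined for RNA bound by NONO in mouse liver nuclei. They were chosen by name, with no threshold on a measured value, and are 10 of the 21924 protein-coding genes of the annotation. A peak, that is a stretch of the genome with more immunoprecipitated than input reads, belonged to a gene when it shared at least 1 bp with the gene body. Of 206501 peaks in 4 lists, 123 met this rule, 86 of them in the 3 NONO lists and 37 in the IgG list.

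RNA immunoprecipitation followed by sequencing (RIP-seq) was done on nuclei of C57BL/6 wild-type livers from animals 14 weeks old. Housing alternated light (12 h) with darkness (12 h), and for a week food was given in darkness only. Livers were sampled fasted at zeitgeber time (ZT, hours after lights on) 10, after 2 h of re-feeding at ZT 14, and after 10 h of re-feeding at ZT 22, so feeding and time of day cannot be told apart. A control precipitate with IgG, for which feeding state and time are not given in the sources used here, completed the set. Each of the 8 libraries, a precipitate and an input for each of the 4 conditions, pooled 2 experiments. Every group is thus 1 library, differences between lists have no replicate check, and no p-value was computed.

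NONO is an RNA-binding protein of the nucleus and a component of paraspeckles, which form around the Neat1 transcript, and it takes part in transcription, splicing and the retention of RNA in the nucleus. Genes of plasma proteins are among the most strongly transcribed in the hepatocyte. Their precursor RNA is abundant in nuclei, where introns are still present, while the spliced messenger RNA is exported to the cytoplasm and translated on the endoplasmic reticulum.

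The precipitates held 18275033 to 21091048 tags (aligned reads), and the lists held 38209 (fasted), 61737 (2 h re-fed), 50609 (10 h re-fed) and 55946 (IgG) peaks. Peaks over a gene of the hepatocyte marker list were present for 4 (fasted and 2 h re-fed) and 5 (10 h re-fed and IgG) of 6 genes, Asgr1 having none in any list, and their normalised tags (tags in peaks per 10000000 tags of the library) summed to 6577.8, 9175.6, 12880.5 and 11020.2 in the order fasted, 2 h, 10 h and IgG. The 4 cholangiocyte markers had no peak in any list, and the 4 Kupffer cell markers together had 8.1 to 42.7. The 4 endothelial markers had 299.0, 664.2, 726.2 and 293.3, with no peak over Pecam1 and with Clec4g covered at 10 h only. The 4 lymphocyte and erythroid markers had 52.8, 61.7, 136.2 and 44.8, with no peak over Cd3e, Cd79a and Hbb-bs. The 4 stellate cell markers had 40.8 to 82.1 in the NONO lists and 2463.9 in the IgG list. Hepatocyte, endothelial and lymphocyte and erythroid sums thus had the order fasted, 2 h, 10 h, as had the sum over the 10 genes below. In the NONO lists, Kupffer (15.2, 8.1 and 42.7) and stellate (47.1, 40.8 and 82.1) sums were lowest at 2 h. The part of any cell type in the sum over the 10 genes was not tested. In whole nuclei preparations fewer cells of a type and less RNA per cell cannot be told apart.

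Peaks lay over 5 of the 10 genes in the fasted list (28.4% of all protein-coding genes had a peak), 5 in the 2 h re-fed list (33.9%), 7 in the 10 h re-fed list (32.7%) and 8 in the IgG list (34.6%). The fasted set was Ahsg, Apob, Fn1, Cp and C3, and the 2 h re-fed set was the same 5 genes. Alb and Fgb joined it at 10 h. Ttr, Fga and Fgg had peaks in the IgG list only, and Ahsg and Fgb had none there. A NONO peak that no IgG peak overlapped, called IgG-free below, was found over 4 genes in the fasted list (26.4% of all protein-coding genes), 5 in the 2 h re-fed list (31.3%) and 6 in the 10 h re-fed list (29.9%). C3 lacked such a peak in the fasted and the 10 h re-fed lists.

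The normalised tags in peaks summed over the 10 genes to 1876.1 (fasted), 7707.9 (2 h re-fed), 11142.5 (10 h re-fed) and 8540.4 (IgG). The corresponding sums of input tags under the same peaks, on the same scale, were 748.1, 3449.2, 5041.9 and 3926.3. A tag outside peaks is not in these lists, so a gene without a peak has no value here rather than a value of 0 RNA. The lowest sum was in the fasted list and the highest in the 10 h re-fed list. A very large IgG peak lay over Rn7sk, the gene of the nuclear 7SK RNA. Scaled to the IgG tags outside that peak, the IgG sum was 13661.2, above all NONO sums. The NONO sums were not rescaled in this way, so that order sets unlike scales side by side. At least 2-fold more normalised tags were found at 2 h than fasted for 3 of 5 genes with a peak in either list (54.2% of all such genes), and the reverse for 0 (13.3%). The 3 were Apob, Fn1 and C3. In these counts a gene with a peak in only 1 of the 2 lists passes, which for Alb and Fgb means a peak at 10 h and no listed value before. Between 2 h and 10 h, 3 of 7 genes (Alb, Fgb and Cp) had at least 2-fold more at 10 h (21.1% of all such genes) and 2 (Apob and C3) at 2 h (32.4%). Of the 5 genes with a peak at both times, Cp alone had 2-fold more at 10 h. Between fasted and 10 h, 6 of 7 genes had at least 2-fold more at 10 h (43.7% of all such genes) and 0 when fasted (16%), Ahsg staying under 2-fold. Of the 5 genes with a peak at both times, 4 had 2-fold more at 10 h. With only peaks of at least 2.5-fold over input, 0 genes had 2-fold more at 10 h than fasted and 2 had 2-fold more fasted. For counts limited to genes with a peak at both times or to peaks of at least 2.5-fold, no share over all genes is given.

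**Figure D1:**
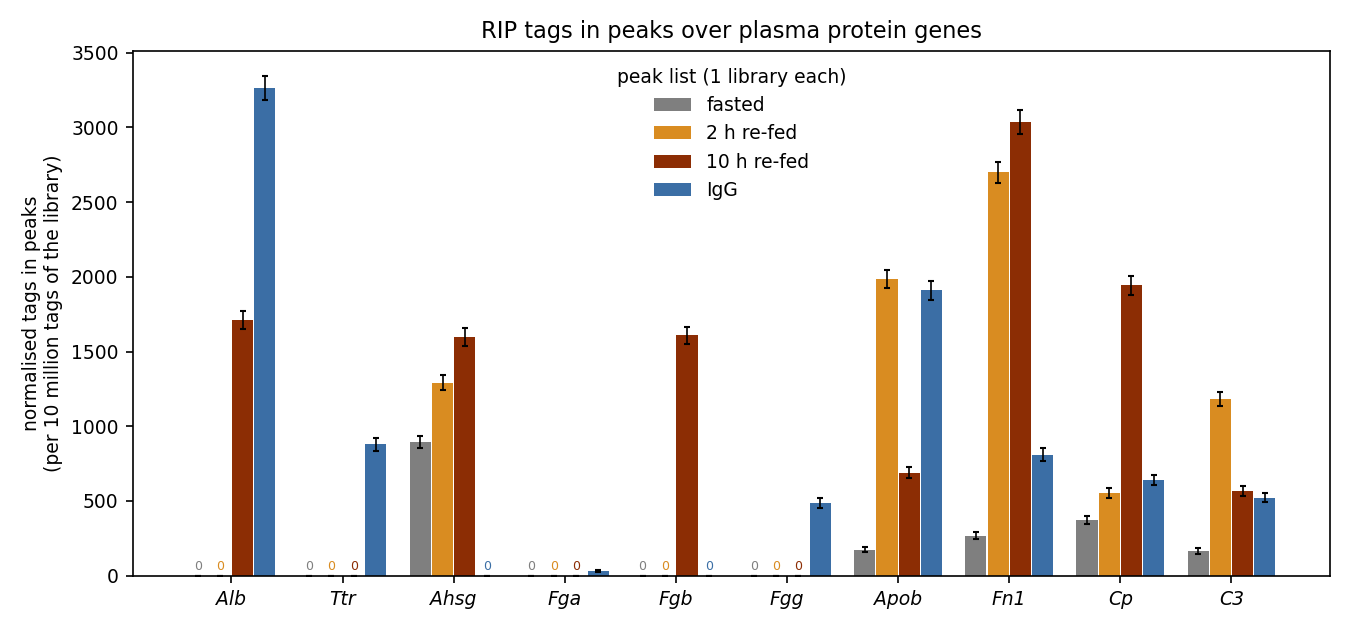
Bars give normalised tags in peaks (tags per 10000000 tags of the library) over each gene in the fasted, 2 h re-fed, 10 h re-fed and IgG lists, with exact Poisson 95% intervals that cover counting error only. A 0 marks a gene with no peak in that list. Alb, Ttr, Fga and Fgg are highest in IgG, Ahsg, Fgb, Fn1, Cp and C3 in a NONO list, and for Apob the 2 h and IgG bars are close.

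Alb (ENSMUSG00000029368.10, chromosome 5, 90460897 to 90476602, plus strand, mm10) encodes serum albumin, the main carrier and osmotic protein of plasma. It had no peak in the fasted and 2 h re-fed lists, 1 at 10 h and 2 in the IgG list. The 10 h peak (90465120 to 90465745) held 1710.0 normalised tags (95% Poisson interval 1650.5 to 1771.0, 3125 tags) at 2.05-fold over input and lay inside intron 5, of which it covered 70.5%. The IgG peaks lay in the flanking introns 4 and 6 (90464236 to 90464736 and 90466142 to 90467151) and held 752.8 and 2510.6 normalised tags, 3263.4 together. Per kb the 10 h peak had 2736.0 normalised tags and the IgG peaks 1505.6 and 2488.2, and intron 5 itself had no IgG peak. Scaled to the IgG tags outside the Rn7sk peak, the IgG sum for Alb was 5220.1.

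Ttr (ENSMUSG00000061808.4, plus strand), whose product transthyretin carries thyroxine and retinol-binding protein, had no NONO peak at any time. Its only peak was in the IgG list, in intron 1, with 878.6 normalised tags (95% Poisson interval 837.0 to 921.8) at 2.22-fold, and covered 71.1% of that intron. Alb and Ttr, both carriers, therefore had more normalised tags in IgG peaks than in those of any NONO list.

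Ahsg (ENSMUSG00000022868.6, chromosome 16, 22891277 to 22899449, plus strand) encodes fetuin-A, a plasma glycoprotein that binds calcium phosphate and also inhibits the insulin receptor. It was the only one of the 10 genes with a NONO peak at every time and no IgG peak. The peak held 895.3 normalised tags fasted (95% Poisson interval 855.3 to 936.6), 1291.1 at 2 h (1243.0 to 1340.5) and 1595.6 at 10 h (1538.2 to 1654.6). Its fold over input was 2.85, 2.54 and 2.63, and the input tags under it were 314.6, 508.0 and 607.4 per 10000000. The tags in the precipitate and in the input both had the order fasted, 2 h, 10 h, and the fold was highest when fasted.

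All 3 Ahsg peaks lay wholly inside intron 1 of the reference transcript (22892328 to 22894324, 1997 bp). They covered 82.8% (fasted, 22892498 to 22894151), 89.3% (2 h, 22892351 to 22894134) and 92.5% (10 h, 22892364 to 22894211) of it. They ended 113 to 190 bp before exon 2. Exons of non-coding Ahsg transcripts shared 52, 143 and 143 bp with the 3 peaks. Intron 1 is also part of Gm30505, an antisense gene on the minus strand (22874983 to 22894386) that shares 3110 bp with Ahsg. No peak touched an exon of Gm30505. Peaks were called on both strands together, so Ahsg intron 1 and the Gm30505 precursor cannot be told apart. The next exon of Ahsg is shown because it is the place where exons of the 2 genes overlap. It is given 5′ to 3′ on the plus strand (chr16:22894325-22894435, GENCODE M21, mm10), and capitals mark the 62 bases that the first exon of Gm30505 covers on the other strand.
Ahsg exon 2: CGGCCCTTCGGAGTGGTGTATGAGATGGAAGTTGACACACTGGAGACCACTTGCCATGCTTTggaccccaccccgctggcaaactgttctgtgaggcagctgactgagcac

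**Figure D2:**
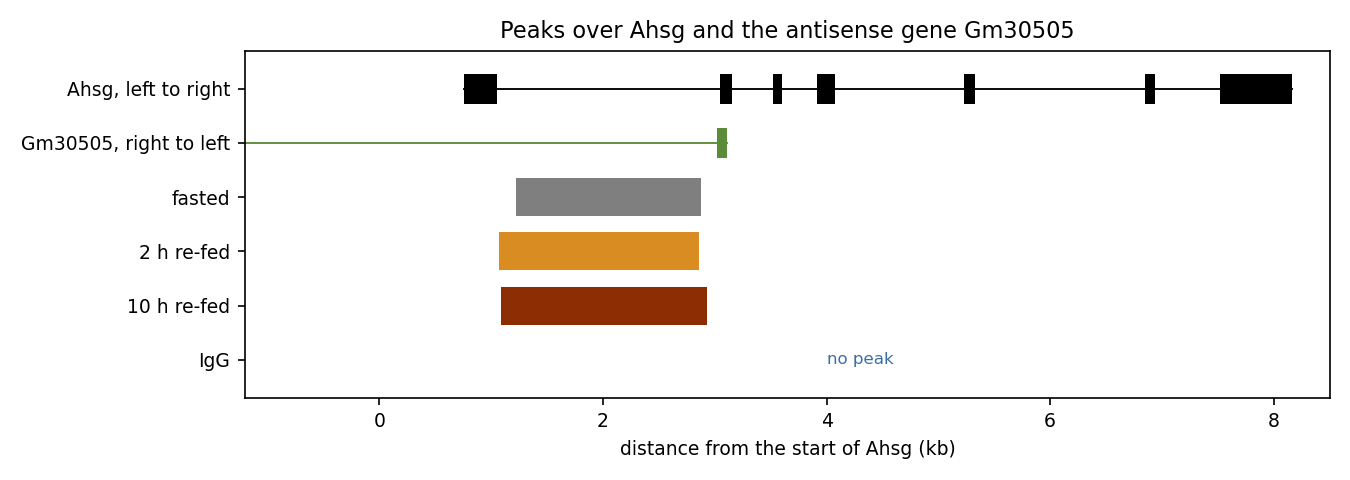
The horizontal axis is distance from the start of the Ahsg gene body in kb, boxes on the upper rows are exons of the reference transcript of Ahsg and of Gm30505, which runs the other way and beyond the left edge, and the lower rows are peaks in each list. The 3 NONO peaks fill most of intron 1 of Ahsg, and the IgG list has no peak over the gene.

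Fibrinogen, the precursor of the fibrin clot, is assembled from chains encoded by Fga, Fgb and Fgg, which lie side by side on chromosome 3. Over the 3 gene bodies there was a NONO peak on Fgb only, and at 10 h only. It lay at the 5′ end of Fgb (ENSMUSG00000033831.5, 83040141 to 83049863, minus strand), from 83048922 to 83049699, almost all in intron 1 with 19 bp in exon 1. It held 1607.7 normalised tags (95% Poisson interval 1550.0 to 1666.9, 2938 tags) at 2.07-fold, against 776.1 input tags per 10000000. Fga (ENSMUSG00000028001.16, 83026076 to 83033627) had 1 IgG peak of 31.6 normalised tags, over 93.8% of intron 4. Fgg (ENSMUSG00000033860.13, 83007724 to 83015049), which shares 765 bp with the lincRNA Gm30097, had 3 IgG peaks with 485.9 normalised tags in introns 4, 7 and 8. None of them lay over Gm30097. No list had peaks over all 3 gene bodies. With 1000 bp after the gene end counted as well, the IgG list did, at 51.1 (Fga), 8.4 (Fgb) and 485.9 (Fgg).

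Apob (ENSMUSG00000020609.14, chromosome 12, 7977648 to 8016835, plus strand) encodes apolipoprotein B, the structural protein of very-low-density lipoprotein. It had 2, 10, 3 and 6 peaks in the fasted, 2 h, 10 h and IgG lists. Their normalised tags summed to 175.0 (95% Poisson interval 157.5 to 193.8), 1983.4 (1923.7 to 2044.3), 687.8 (650.3 to 726.9) and 1908.7 (1847.2 to 1972.0). The 2 h sum was the highest of the NONO lists and close to that of IgG, which was 3053.2 when scaled to the tags outside Rn7sk. These sums cover different regions, since each list was called on its own: peaks covered 6.1%, 20.5%, 5.5% and 12.6% of the gene. With only peaks of at least 2.5-fold the NONO sums were 151.7, 310.6 and 166.3. Of the 2 fasted peaks, the smaller (23.3 normalised tags) shared only 1 bp with the gene, at its 3′ end.

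The 10 peaks of 2 h lay between 2.44 and 26.44 kb from the start, each with its midpoint in another intron, at 2.02-fold to 2.5-fold. The 3 peaks of 10 h coincided with those of 2 h in introns 7, 20 and 24, where the normalised tags were 215.3, 244.2 and 310.6 at 2 h and 166.3, 309.2 and 212.3 at 10 h. None of these had an IgG peak. In intron 18 the fasted peak held 151.7, the 2 h peak 112.4 and the IgG peak 26.8 normalised tags. Intron 18 was the only place of Apob with a peak both fasted and at 2 h, and per kb it had 80.9 fasted and 70.2 at 2 h. The longest exon of the 10 genes is in Apob (8005736 to 8013202, 7467 bp) and no peak of any list touched it.

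Fn1 (ENSMUSG00000026193.15, chromosome 1, 71585520 to 71653200, minus strand) encodes fibronectin, which circulates in plasma in a form made by the liver and joins clots and extracellular matrix. It had the most NONO peaks of the 10 genes, with 7, 17 and 13 peaks and 7 in IgG. The normalised tags summed to 268.1 fasted (95% Poisson interval 246.5 to 291.2), 2698.9 at 2 h (2629.1 to 2769.8), 3033.1 at 10 h (2953.8 to 3114.0) and 810.2 in IgG (770.2 to 851.7). Both re-fed sums were above the fasted sum and above IgG, which was 1296.0 when scaled to the tags outside Rn7sk. Peaks covered 5.6%, 23.1%, 20.3% and 10.5% of the gene, so the sums are over different regions. At places with a peak at 2 times, tags per kb were 1.4 and 1.96 times the fasted value at 2 h and 1.2 and 2.75 times at 10 h. With only peaks of at least 2.5-fold the NONO sums were 58.5, 102.4 and 0, so that 10 h had no peak left.

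Peaks ran along the whole gene, from 0.96 kb to 65.48 kb after the start. Intron 41 was covered in all 3 NONO lists and not in IgG, with 61.8, 563.3 and 702.6 normalised tags at 2.03-fold, 2.17-fold and 2.45-fold. In intron 5 the largest peak of 2 h but one (360.8 normalised tags) coincided with the largest IgG peak of the gene (298.0). The antisense gene Apol7d shares 364 bp at the start of Fn1 and had no peak in the shared part.

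Fibronectin RNA is spliced in alternative ways at 3 places, the extra domain B (EDB) exon, the extra domain A (EDA) exon and the variable region, and the plasma form made by hepatocytes is known to lack both extra domains. The annotation holds 7 consensus coding transcripts of Fn1, of which 1 includes the EDB exon, 4 the EDA exon, and 3, 2 and 2 the forms of the variable exon of 467, 392 and 107 bp. NONO peaks reached all 3 places. At 10 h a peak (71612689 to 71615201, 462.9 normalised tags, 2.25-fold) covered all 273 bp of the EDB exon, and another (71603688 to 71604785, 563.6 normalised tags, 2.21-fold) covered 242 of the 270 bp of the EDA exon. At 2 h a peak in intron 39 (71597714 to 71598339, 150.8 normalised tags, 2.42-fold) reached 34 bp into the longest form of the variable exon, which these bases begin and the other forms lack. Of exons that all 7 transcripts share, NONO peaks touched 3, by 42, 3 and 9 bp. They touched an exon of another coding Fn1 transcript by 82 bp (2 h) and 39 bp (10 h). With non-coding Fn1 transcripts counted as well, exons took up all 626 bp of the 2 h peak at the variable region. They then took up 931 of the 1098 bp of the 10 h peak at the EDA exon. The IgG peak of 71619675 to 71621857 covered the whole of exon 21 (95 bp), which all 7 share. No IgG peak and no fasted peak touched the 3 alternative places, which were singled out after the values were seen.

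Most of each NONO peak at these 3 places lay in introns of the reference transcript, and most of that intron sequence is not shown. The sequences below show the bases of coding-transcript exons that the peaks reached, with the end of intron 39 at the variable region. They are written 5′ to 3′ on the minus strand from GENCODE M21 transcripts (mm10). In the exons at chr1:71613763-71614035 (EDB) and chr1:71603660-71603929 (EDA) capitals mark bases under the 10 h peak. At the variable region (chr1:71597714-71597947, all under the 2 h peak) lower case is the end of intron 39 of the reference transcript. Another annotated Fn1 transcript holds this stretch as exon. Capitals are the 34 bases that begin the longest exon form.
Fn1 EDB exon: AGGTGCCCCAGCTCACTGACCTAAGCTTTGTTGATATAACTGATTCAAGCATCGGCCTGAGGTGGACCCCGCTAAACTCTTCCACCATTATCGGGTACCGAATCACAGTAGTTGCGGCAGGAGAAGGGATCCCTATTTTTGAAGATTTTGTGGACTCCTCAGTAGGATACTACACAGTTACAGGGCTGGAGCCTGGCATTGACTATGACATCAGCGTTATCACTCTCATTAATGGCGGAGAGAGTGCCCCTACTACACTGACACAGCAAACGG
Fn1 EDA exon: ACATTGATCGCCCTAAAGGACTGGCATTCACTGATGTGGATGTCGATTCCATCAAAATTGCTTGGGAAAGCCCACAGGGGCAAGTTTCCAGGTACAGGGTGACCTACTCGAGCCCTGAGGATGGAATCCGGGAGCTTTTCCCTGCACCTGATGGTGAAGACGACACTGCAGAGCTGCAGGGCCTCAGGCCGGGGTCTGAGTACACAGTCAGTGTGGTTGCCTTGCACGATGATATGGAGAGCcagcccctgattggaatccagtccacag
Fn1 variable region: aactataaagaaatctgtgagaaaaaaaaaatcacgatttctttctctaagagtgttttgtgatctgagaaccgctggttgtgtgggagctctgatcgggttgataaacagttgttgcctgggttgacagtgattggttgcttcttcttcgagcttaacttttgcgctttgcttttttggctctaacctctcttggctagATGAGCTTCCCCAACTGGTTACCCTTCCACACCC

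Cp (ENSMUSG00000003617.16, chromosome 3, 19957054 to 20009145, plus strand) encodes ceruloplasmin, the copper-carrying ferroxidase of plasma. It had 7, 8, 9 and 9 peaks in the fasted, 2 h, 10 h and IgG lists. The normalised tags summed to 372.7 (95% Poisson interval 347.1 to 399.8), 551.0 (519.7 to 583.6), 1942.0 (1878.6 to 2007.0) and 639.2 (603.6 to 676.1). The 10 h sum was the highest, over 8.0%, 14.7%, 16.8% and 18.9% of the gene in the 4 lists. With only peaks of at least 2.5-fold the order turned, with 55.6 fasted, 40.3 at 2 h and 25.7 at 10 h. IgG peaks met 1, 5 and 5 of the NONO peaks.

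The largest Cp peak was in intron 6 at 10 h (19971102 to 19972549, 662.1 normalised tags, 2.14-fold), where the fasted list had 99.8 and the 2 h and IgG lists no peak. Intron 2 had 211.0 at 2 h and 398.4 at 10 h. Intron 3 had the only place among the 10 genes with a peak in all 4 lists, with 54.2, 40.3, 112.7 and 40.0 normalised tags and the highest fold, 3.29, in IgG. Intron 11 was covered in the 3 NONO lists and not in IgG, with 21.9, 28.9 and 71.1. Intron 18, the longest intron of the 10 genes at 16248 bp, held 2, 3 and 3 peaks of 2 h, 10 h and IgG and none of the fasted list. The fasted list instead had a peak in the last exon, exon 20 (20007124 to 20007624), with 11.4 normalised tags (24 tags) and 3.61-fold. That was the only NONO peak over the 10 genes of 3-fold or more. The 3′ part of Cp shares 13201 bp with Hps3 on the other strand, and this peak lay over the body of Hps3, though over none of its exons. Cp peaks also lay over Hps3 at 2 h (1), 10 h (2) and in IgG (2), and 1 of those at 10 h and 1 in IgG touched an Hps3 exon, so the RNAs of Cp and Hps3 cannot be told apart there.

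C3 (ENSMUSG00000024164.15, chromosome 17, 57203970 to 57228136, minus strand) encodes complement component 3, on which the complement pathways converge. It had 2, 2, 1 and 8 peaks in the fasted, 2 h, 10 h and IgG lists, so the control had more peaks than the NONO lists together. The normalised tags summed to 165.0 (95% Poisson interval 148.1 to 183.3), 1183.5 (1137.5 to 1230.8), 566.3 (532.4 to 601.9) and 522.8 (490.7 to 556.3). Intron 33 held 885.7 at 2 h, 566.3 at 10 h and 107.4 in IgG. The fasted peaks in introns 29 (127.4) and 17 (37.6) each coincided with an IgG peak of nearly the same size (119.5 and 39.0). A 2 h peak in intron 27 (297.8, 2.15-fold) was the only IgG-free peak of the gene. The microRNA gene Mir6978 inside C3 had no peak over it.

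**Figure D3:**
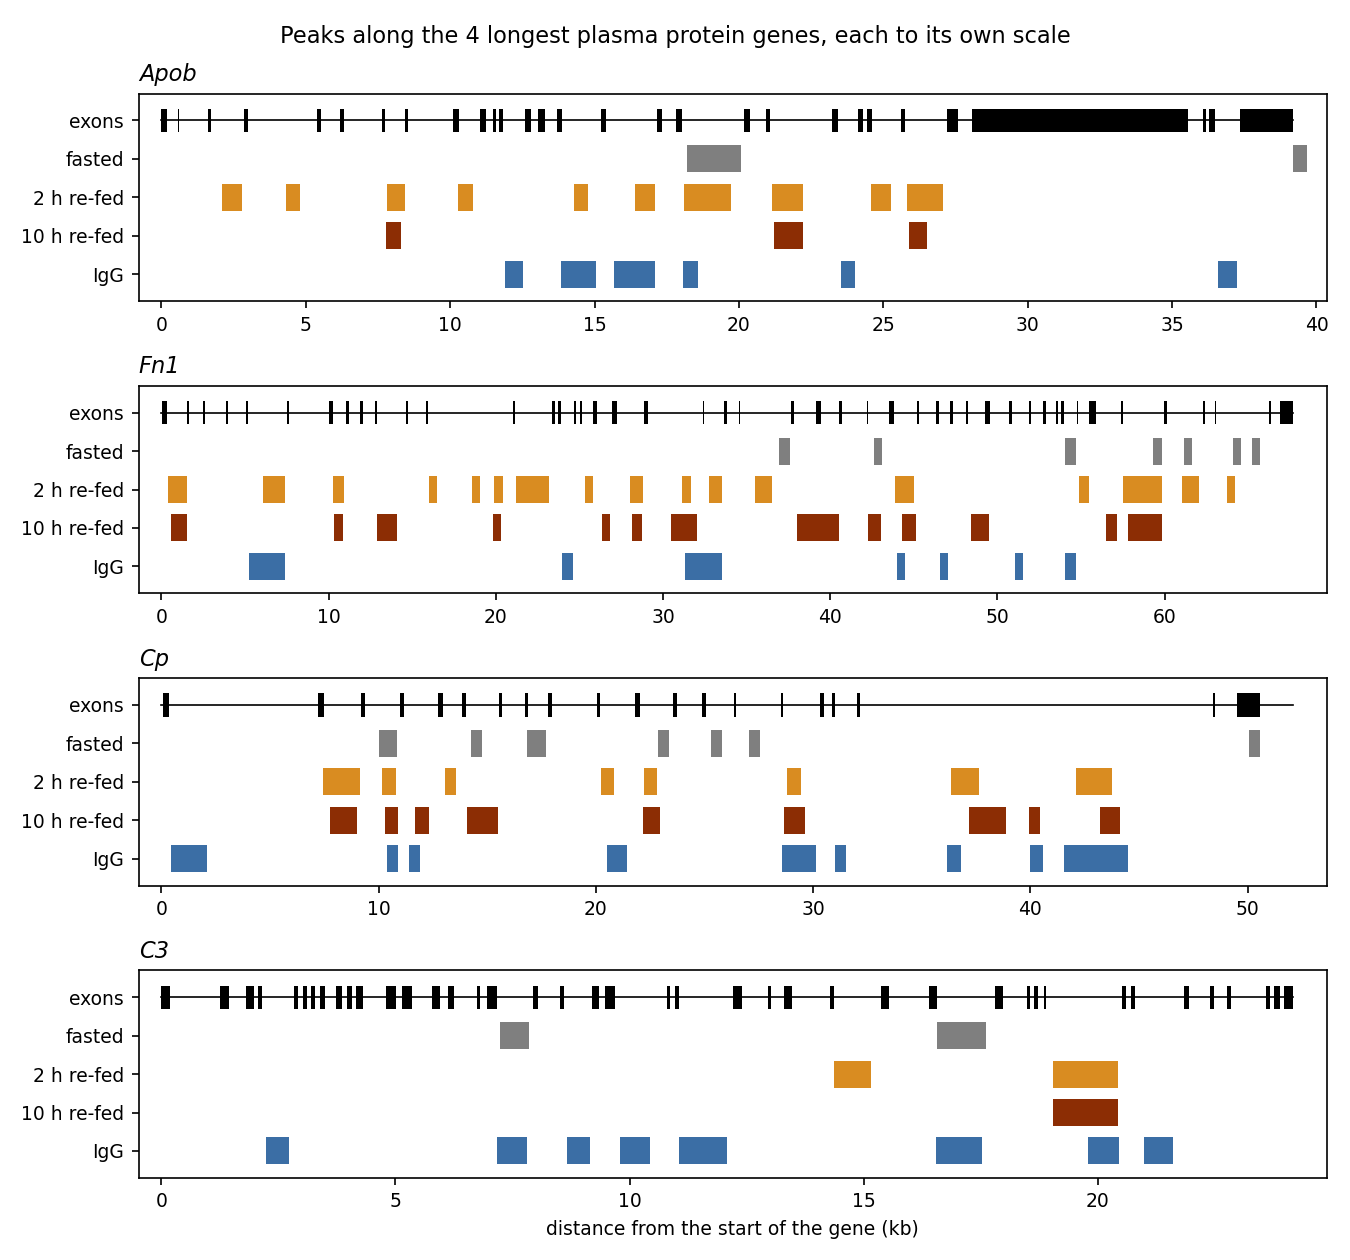
Each panel has distance from the start of the gene body in kb on the horizontal axis, exons of the reference transcript as black boxes in the upper row, and peaks of the fasted, 2 h re-fed, 10 h re-fed and IgG lists in the rows below. Apob has 10 peaks at 2 h and none over its longest exon, Fn1 has 7, 17 and 13 NONO peaks along its length, and C3 has more peaks in IgG (8) than in any NONO list.

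Peaks over the 10 genes lay in introns. Of the 123 peaks, 119 had their midpoint in an intron of the reference transcript, 3 in an exon and 1 outside the gene. No exon of the reference transcript was touched by 102 of them, and none reached 2 such exons. With all transcripts of the genes counted, 25 peaks touched an exon of a coding transcript. Another 5 touched an exon of a non-coding transcript only. Exons of coding transcripts made up 4.1% (fasted), 0.82% (2 h), 2.61% (10 h) and 1.48% (IgG) of the peak bases inside the genes, against 18.6% to 19.1% of the bodies of the genes with a peak. Over all protein-coding genes with a peak these shares were 2.18% to 2.7% of peak bases and 6.09% to 6.43% of the gene bodies. The fasted share came mostly from the Cp exon 20 peak, with 486 of 541 exon bases. Because a peak is at least 500 bp wide, exons and introns of at least that length were also compared. A peak had its midpoint in 12.5% (fasted), 27.3% (2 h), 20.3% (10 h) and 26.6% (IgG) of the 128 such introns. Of the 10 such exons, 1 held a fasted midpoint and none one of the other lists. The intronic position was thus shared by the antibody and the control.

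The enrichment over input of these peaks was close to the 2-fold that a peak needed. The median fold was 2.19 (fasted), 2.17 (2 h), 2.14 (10 h) and 2.30 (IgG), against 2.79, 3.09, 2.81 and 4.16 for peaks over all protein-coding genes. Under 2.5-fold were 68.4%, 89.5%, 89.7% and 75.7% of the peaks over the 10 genes, against 37.2%, 27.5%, 35.7% and 11.8%. The input under them was dense, with a median of 29.7, 82.0, 110.7 and 49.6 input tags per 10000000 and kb, against 9.4, 6.8, 9.1 and 3.8 for all protein-coding genes. Only 4 of the 123 peaks reached 3-fold, the Cp exon 20 peak of the fasted list and 3 IgG peaks in C3 and Cp. The part that input density plays in the folds was not tested.

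**Figure D4:**
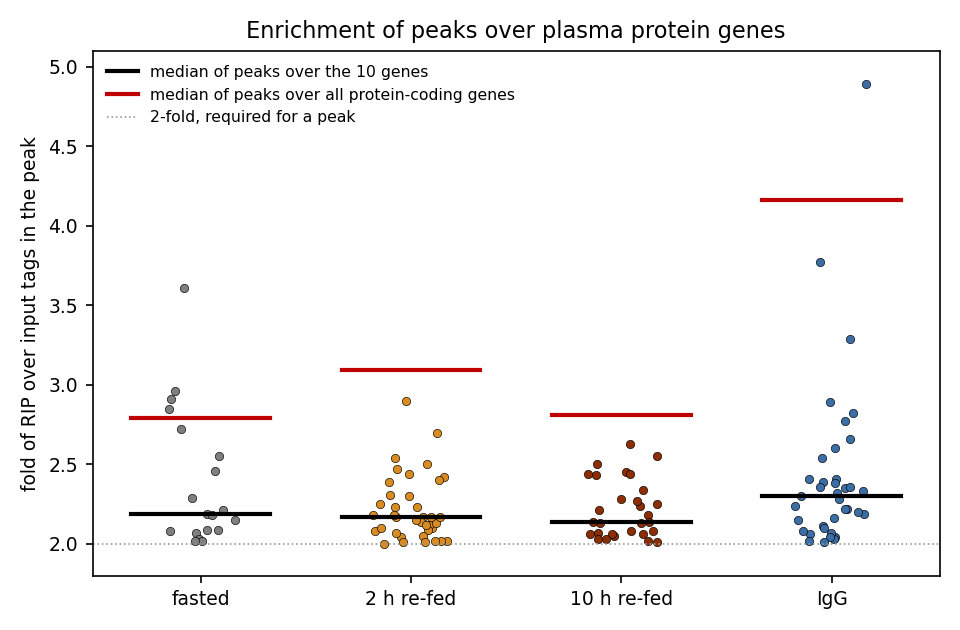
Each point is a peak over the 10 genes in the fasted, 2 h re-fed, 10 h re-fed or IgG list, spread sideways for visibility, with its fold of precipitate over input on the vertical axis. Black lines are the medians of these peaks (2.19, 2.17, 2.14 and 2.30), red lines the medians over all protein-coding genes (2.79, 3.09, 2.81 and 4.16), and the dotted line the 2-fold requirement.

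Where a peak of the 10 genes was present at 2 times, over at least 50% of the shorter peak, its tags per kb could be set beside those of the input. There were 27 such pairs, in Ahsg, Apob, Fn1, Cp and C3. Precipitate and input differed in the same direction in 26 of them, and the log2 ratios of the 2 differed by a median of 0.12 and at most 0.41. The exception was Apob intron 18 between fasted and 2 h, where the precipitate went from 80.9 to 70.2 tags per kb and the input from 29.7 to 30.5. For all protein-coding genes the direction was shared in 84.1% to 87.4% of pairs, with a median difference of 0.22 to 0.24. Both peaks of a pair had to reach 2-fold, which limits how far the ratios can part.

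In Ahsg intron 1 the precipitate had 541.6, 724.1 and 863.9 normalised tags per kb and the input 190.3, 284.9 and 328.8. In Fn1 intron 41 the precipitate had 123.6, 242.3 and 339.9 and the input 61.0, 111.6 and 138.8. In Cp intron 2 the precipitate had 125.1 at 2 h and 321.0 at 10 h, and the input 59.6 and 155.9. C3 intron 33 went the other way, with 640.4 and 403.6 in the precipitate and 293.1 and 177.8 in the input. In these 4 introns the order of the lists was thus the order of the nuclear RNA in the input, and how much of the difference between lists lies in the binding was not tested.

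**Figure D5:**
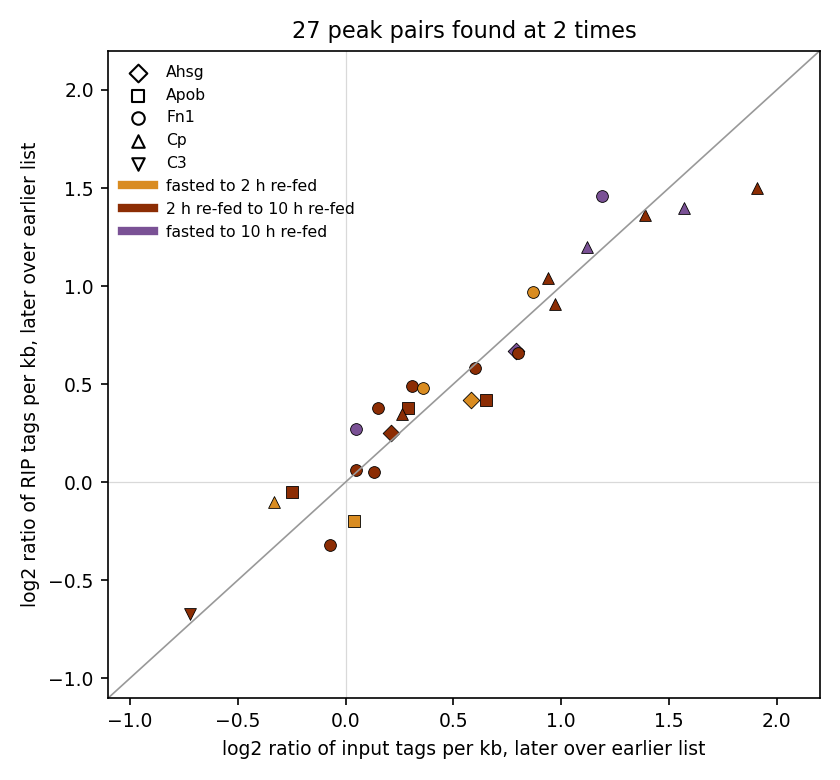
Each point is a pair of overlapping peaks at 2 times, with the log2 ratio of input tags per kb on the horizontal axis and of precipitate tags per kb on the vertical axis, by gene (symbol) and pair of times (colour). The 27 pairs lie along the line of equal ratios, at most 0.41 from it.

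Few places recurred. The 123 peaks merged into 78 places, of which 4 were covered at all 3 times, 19 at 2 times, 35 at 1 time and 20 in IgG only. The 4 were Ahsg intron 1, Fn1 intron 41 and Cp introns 3 and 11, and all but Cp intron 3 were without an IgG peak. A NONO and an IgG peak shared 17 places, 7 of them in Cp, 4 in Fn1 and 3 each in Apob and C3.

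Other plasma protein genes were taken from a list of 94, of which 93 were in the annotation. A peak lay over 48 (fasted, 51.6%), 57 (2 h, 61.3%), 57 (10 h, 61.3%) and 66 (IgG, 71.0%) of them. That was a larger share than of all protein-coding genes (28.4%, 33.9%, 32.7% and 34.6%) in every list, the control included, though not in every class. Genes of coagulation had a peak for 15, 16, 15 and 17 of 18 genes (83.3%, 88.9%, 83.3% and 94.4%). Among them Plg, the precursor of the clot-dissolving protease plasmin, had 562.0, 802.8, 1179.7 and 980.7 normalised tags. Serpinc1, which encodes antithrombin, had 243.9, 631.6, 1059.9 and 25.8, and was above IgG at each time. Genes of this list were named for having the most NONO tags of their class, a choice that favours values above IgG. Genes of complement had a peak for 13, 15, 15 and 13 of 17 genes (76.5%, 88.2%, 88.2% and 76.5%). Hc, encoding complement component 5, had 414.9, 1807.3, 1646.5 and 686.0. Like C3, Hc had its highest value at 2 h.

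Genes of lipoproteins had a peak for 3, 5, 4 and 4 of 14 genes (21.4%, 35.7%, 28.6% and 28.6%). Only the 2 h share was above that of all protein-coding genes (28.4%, 33.9%, 32.7% and 34.6%). Mttp, which loads lipid onto apolipoprotein B, had 194.0, 746.4, 444.8 and 357.9 normalised tags, the order of lists seen for Apob among the NONO lists, and Apoh had 66.6, 137.5, 444.8 and 56.3. Transport proteins had a peak for 3, 4, 5 and 7 of 10 genes, with Gc, the vitamin D-binding protein, at 996.6, 1360.2, 1418.3 and 704.9 and Afm, encoding the albumin relative afamin, at 498.8, 824.5, 1381.1 and 209.0. Protease inhibitors had a peak for 11, 13, 14 and 19 of 20 genes. Mug1 (1449.6, 1444.2, 3660.1 and 1596.1) and Pzp (1006.0, 1402.0, 2622.7 and 483.9) are members of the alpha-macroglobulin family, and how reads shared with related genes were counted is not given in the sources used here. Acute phase and other genes had a peak for 3, 4, 4 and 6 of 14 genes (21.4%, 28.6%, 28.6% and 42.9%). In each NONO list that was below the share of all protein-coding genes. Igf1, the growth factor of the growth hormone axis, had 550.6, 7080.8, 2437.7 and 1791.0. Its sums cover different regions, of 4373, 37260, 21938 and 38313 bp. Only 4 of its 14 peaks at 2 h and 4 of its 16 at 10 h were IgG-free. Crp, whose annotated body spans 135 kb, had 1112.3, 897.4, 808.3 and 734.4. Of the list, 34 of 62 genes had at least 2-fold more normalised tags at 2 h than fasted (54.2% of all protein-coding genes with a peak in either list) and 8 the reverse (13.3%). At 10 h, 16 of 63 had more than at 2 h (21.1%) and 11 the reverse (32.4%). Between fasted and 10 h, 41 of 61 had more at 10 h (43.7%) and 5 the reverse (16%). The counts of 34, 8 and 16 are near the shares over all genes and cannot be read as a trait of the list.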

How the data were processed

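The submitters' processing notes name mm10, HOMER, FastQC (0.11.2) and STAR (2.4.0k). Per the labels' protocols, the kit keeps strand and depletes ribosomal RNA. Peaks were called by HOMER without regard to strand, per the file headers, in 500 bp windows joined within 1000 bp, at 2-fold or more over the matched input and a threshold of 11 tags (8 for IgG). The signal values are the authors' deposited tags per 10000000 tags of the library. The counts deposited for the 10 h and IgG lists are whole tags, and those of the other lists were recovered by rounding, within 0.11 tag. The deposited fold, a ratio of scaled tags, and the deposited HOMER score and p-value are the authors' own. Fold and score served to describe and filter peaks within a list, and p-values were not used. Input libraries entered only through the control tags in the lists, put on the scale of 10000000 tags.

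Peaks were laid on GENCODE M21 gene bodies with a minimum overlap of 1 bp. A reference transcript gave exon and intron numbers, and Poisson intervals are exact and cover counting error only, since reads without molecular identifiers are not independent molecules. The 10 genes, the list of 94, the cell markers and the rule for named genes were chosen with earlier results of these data known. The rule names all 10 genes, up to 2 genes of each class of the list with most NONO tags, and genes that share a body with the 10, and 1 gene that it names is not reported here. The overlap step was tested on simulated data for peaks over protein-coding genes (21924 genes), where all 3000 planted overlaps were found. Python 3.11.15, numpy 2.4.6, pandas 2.3.3, scipy 1.17.1 and matplotlib 3.10.9 were used. Alternatives covered the fold, the overlap rule, exons, the gene end, the IgG rule, list length and the Rn7sk peak.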

Additional observations from a re-analysis of the deposited data

How the results depend on the processing

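No paired analysis was possible because only 1 library stands for each condition. Values are in the order fasted, 2 h, 10 h and IgG. For the counts of genes under these alternatives, no share over all protein-coding genes is given. With peaks of at least 2.5-fold, the genes with a peak fell to 3 at 10 h and 5 in IgG, those with an IgG-free peak to 3 at 2 h and 2 at 10 h, the peaks to 6, 4, 3 and 9, and the normalised tags to 1161.1, 1744.4, 1787.6 and 799.2. Of the other plasma protein genes 31 had a fasted peak. Then 1 gene had 2-fold more at 2 h than fasted, 0 more at 10 h than 2 h and 1 the reverse, and 0 more at 10 h than fasted and 2 the reverse. At 3-fold, genes with a peak were 1, 0, 0 and 2, IgG-free 1, 0 and 0, peaks 1, 0, 0 and 3, tags 11.4, 0, 0 and 80.0, and other plasma protein genes 20, 32, 26 and 34. Pairs of times then gave 0 and 1 (2 h and fasted higher), 0 and 0 (10 h and 2 h), and 0 and 1 (10 h and fasted). With 1000 bp after the gene end, 8 genes had a 2 h peak, tags were 8065.4 (2 h), 11344.9 (10 h) and 8735.2 (IgG), 5 genes were higher at 2 h and 2 when fasted, and 1 was higher fasted than at 10 h. Counting exons only, genes with a peak were 2 (fasted), 3 (10 h) and 5 (IgG), IgG-free 2 fasted and 2 at 10 h, peaks 3, 8, 7 and 7, tags 128.4, 1768.1, 3121.3 and 1207.2, and other plasma protein genes 17, 30, 23 and 19. Then 1 gene was higher at 10 h than 2 h, 3 at 10 h than fasted and 1 the reverse. By covered bp, 1 gene was higher at 2 h than 10 h. Outside Rn7sk the IgG sum was 13661.2. The stricter folds and the exon rule count fewer peaks, the gene end rule more, and Rn7sk changes only the scale of the IgG list. Any further cause was not tested.

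Lists cut to the 38209 peaks of the shortest, midpoint or 50% overlap rules, the other IgG rules and a 1.5-fold difference moved no count by over 1.5 times. A region under the 2-fold requirement or the tag threshold is not listed, so no level can be given for a gene without a peak. Fewer IgG tags lie outside Rn7sk than its total gives.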

Other observations

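Peaks also lay just past the annotated end of several of these genes. Within 1000 bp after the gene end, outside the gene body, 15 peaks lay beside 8 of the 10 genes. The fasted liver gave 2 of them, each re-fed liver 5 and the control 3. The count of genes takes all lists together, the control included. No share over all protein-coding genes is given for it, so it cannot be read as a trait of these genes. Alb, with no 2 h peak in its body, had 270.7 normalised tags (2.38-fold) starting 241 bp past the end at 2 h, 35.0 at 10 h and 166.9 in IgG. Ttr, with no NONO peak in its body, had a fasted peak of 27.1 (2.15-fold) 18 bp past the end. Both genes thus had a peak past the end at a time without one in the body. The 2 h peak past Alb overlapped an IgG peak. Whether these tags belong to Alb and Ttr was not tested. Fgb had 8.06 at 2 h (17 tags, over an input too low for a fold), then 21.3 at 10 h (3.17-fold) and 8.42 in IgG. Fgg had 30, 7.11 (15 tags, 4.76-fold) and 36.1 in the fasted, 2 h and 10 h lists and none in IgG. It was the only gene of the 10 with a peak past the end at all 3 times. Ahsg had 70.6 at 10 h, Fn1 36.0 at 2 h and 39.4 at 10 h, C3 35.6 at 2 h, and Fga 19.5 in IgG. An IgG peak overlapped both Fn1 peaks, and none overlapped those of Ahsg and C3. These peaks were looked at after the values over the gene bodies were known, and reads that run past the end of a transcript and reads of a neighbouring transcript were not separated.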
